A study of Mus musculus with 3 samples.

Results

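The 10 genes described here encode or regulate the machinery that loads peptides on MHC class I: H2-K1, H2-D1, B2m, Tap1, Tap2, Tapbp, Psmb8, Psmb9, Psmb10 and Nlrc5. They were chosen by name and matched by gene identifier across the gene and transcript tables of all 3 libraries. All 10 were found among 55536 annotated genes, with 72 annotated transcripts between them. The cells were primary macrophages of strain C57BL/6J, grown from bone marrow and treated with Lipid A at 100 ng/ml for 40 min. Lipid A is the part of bacterial lipopolysaccharide that Toll-like receptor 4 recognises. RNA of the chromatin fraction was sequenced after ribosomal RNA depletion, so the values describe RNA still held at chromatin and not the cytoplasmic mRNA pool. The study formed 1 group of 3 biological replicates, which cite the same donor entry. Age and sex were not collected. Untreated cells were not analysed here, so no value below is a response to Lipid A.

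MHC class I molecules display short peptides from the cell's own proteins to CD8+ T cells. The proteasome cuts the proteins, the TAP transporter carries the fragments into the endoplasmic reticulum, and tapasin holds an empty heavy chain with its light chain, β2-microglobulin, next to TAP until a peptide binds. Interferons induce 3 alternative catalytic proteasome subunits and the transactivator NLRC5, which acts at class I promoters.

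Replicates 1, 2 and 3 held 12699813, 18280033 and 18087091 expected counts, from RNA inputs of 1 µg, 250 ng and 500 ng. Levels are given as TPM, an abundance scaled for transcript length and library depth. Of 10 macrophage markers, 9 lay above the typical expressed gene. The 6 dendritic cell, 5 B cell, 6 T cell, 6 neutrophil and 5 fibroblast markers all lay below it. The summed level of the macrophage markers was 987.59 to 1327.71 TPM per library. In the alignment-based tables, the authors' values from aligned reads that are used throughout unless stated, no sum of another cell type's markers exceeded 1.65 TPM, and Pax5, Cd3e, Cd3d, Trac, Ly6g and Elane were listed at 0 in every library. The authors' other table, made without aligning reads (the alignment-free table), had the T cell marker Cd3d at 17.3, 14.1 and 19.3 TPM. In bulk RNA, fewer cells of a type and less RNA per cell cannot be told apart.

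Mean levels of the class I genes ran from 0.973 TPM for Psmb9 to 683 TPM for H2-K1. Each gene was set against the library's reference gene, the median of 8765 nuclear protein-coding genes with a mean level of at least 1 TPM, which was 7.56, 6.64 and 6.56 TPM in replicates 1, 2 and 3. A gene was called higher or lower when limma's treat method placed it more than 2-fold away on the log2(TPM + 0.1) scale, with a Benjamini-Hochberg adjusted p under 0.05 over 18443 genes. Of the 10 class I genes, 5 were higher (H2-K1, H2-D1, Nlrc5, B2m and Tapbp), 2 were lower (Psmb8 and Psmb9) and 3 were neither (Tap1, Psmb10 and Tap2). Of all genes tested, 15.1% were higher and 52.5% were lower. Of the protein-coding genes alone, 19.5% were higher and 44.5% were lower. The SE and p-values rest on the spread between these 3 libraries, moderated by limma towards that of genes of similar level. An SE can therefore exceed the scatter of a gene's own values. For H2-D1 the log2 differences were 6.56, 6.54 and 6.61 and the moderated SE was 0.14.

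**Figure D1:**
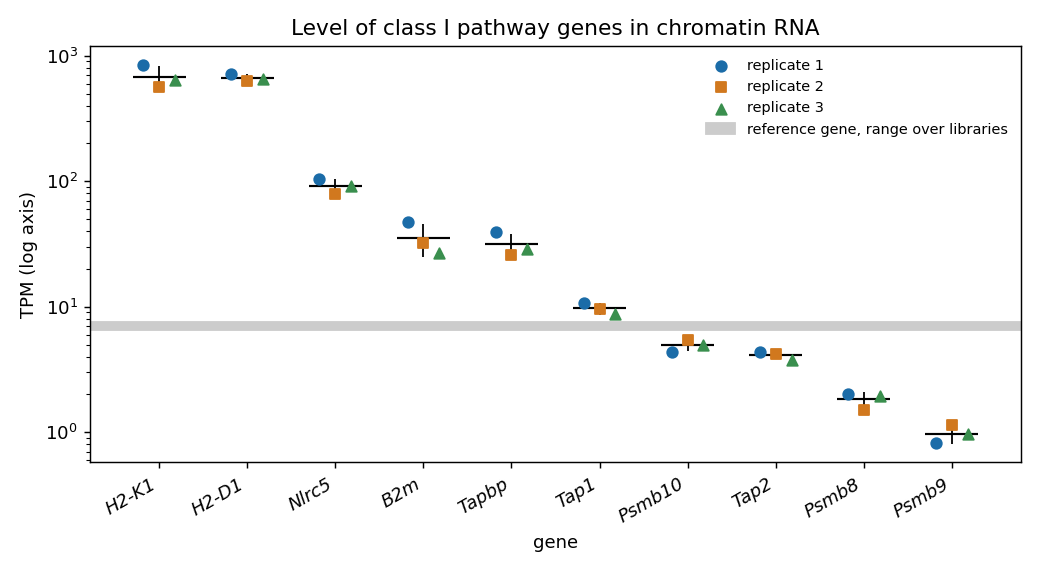
Level of each class I gene in TPM on a log axis, with genes ordered by mean; points are the 3 libraries, horizontal lines the mean and vertical bars the SD. The grey band is the reference gene over the libraries, 6.56 to 7.56 TPM. H2-K1 and H2-D1 average 683 and 666 TPM, and Psmb8 and Psmb9 average 1.82 and 0.973 TPM.

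The classical heavy chains were the most abundant. H2-K1, the K heavy chain that binds peptide and is recognised by T cells, lies at chr17:33996017-34000347 on the minus strand of mm10. Its level was 846.05, 559.62 and 644.38 TPM in replicates 1, 2 and 3, highest in replicate 1, with a mean of 683 ± 147 TPM (SD, n = 3). It ranked 17 among the 8765 expressed protein-coding genes, and its level was 96.1-fold that of the reference gene (log2 difference 6.59 ± 0.16 SE, limma adjusted p = 3.5e-05). The difference was 4.89 over protein-coding isoforms only and 5.40 against reference genes from 5 TPM, and the call held in both.

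H2-D1, the D heavy chain, lies at chr17:35262730-35267499 on the plus strand. Its level was 720.5, 626.49 and 652.34 TPM, again highest in replicate 1 but within a narrower range, with a mean of 666 ± 48.6 TPM. That order belongs to the TPM scale. Against the reference gene H2-D1 was highest in replicate 3, and in counts scaled to library size it was lowest in replicate 1. It ranked 18, next to H2-K1, at 94.98-fold the reference gene (log2 difference 6.57 ± 0.14 SE, limma adjusted p = 3.5e-05). It was 5.23 over isoforms of at least 800 bases and 5.38 against reference genes from 5 TPM, with the call held.

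The difference between the heavy chains was smaller than its spread. The log2 ratio of H2-K1 over H2-D1 was 0.23, -0.16 and -0.02 in replicates 1, 2 and 3, a mean of 0.02 ± 0.20 (SD). H2-K1 was above H2-D1 in replicate 1 alone, and an exact sign-flip permutation test gave p = 1 (two-sided; 3 libraries cannot give a p below 0.25). The ratio depended on the isoforms counted: it was -1.84 over protein-coding isoforms only and 0.76 over isoforms of at least 800 bases.

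Reads of the heavy chains can be hard to assign. The coding sequences of the longest coding transcripts, 1110 bases for H2-K1 and 1089 for H2-D1, were identical at 91.5% of ungapped positions. Of the 31-base words in the longest H2-K1 coding transcript, 16.9% also occurred in H2-D1, and 23.3% occurred in any other gene. For the longest H2-D1 coding transcript, 12.9% of the words occurred in H2-K1 and 27.7% in any other gene. The longest run shared by the coding sequences is shown because a read inside it fits both genes. It covers 91 bases, from coding position 738 to 828 of H2-K1 and from 747 to 837 of H2-D1:
shared run: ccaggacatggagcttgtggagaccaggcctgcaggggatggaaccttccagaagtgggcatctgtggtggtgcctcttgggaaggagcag

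The 60-base window with the most mismatches is shown for contrast, since reads there separate the genes. It holds 15 mismatches, printed in capitals, and begins at coding position 492 of H2-K1 and 501 of H2-D1:
H2-K1: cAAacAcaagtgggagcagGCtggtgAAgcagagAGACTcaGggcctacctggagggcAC
H2-D1: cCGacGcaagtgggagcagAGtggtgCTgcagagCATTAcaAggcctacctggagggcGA

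B2m, which encodes the invariant light chain β2-microglobulin, lies at chr2:122147686-122153083 on the plus strand, outside the MHC. Its level was 47.15, 31.91 and 26.98 TPM, with no overlap with either heavy chain in any library. The mean was 35.3 ± 10.5 TPM, rank 1275, and the log2 difference from the reference gene was 2.30 ± 0.15 SE (limma adjusted p = 0.00048). B2m has 1 annotated isoform of 860 bases over 4 exons and shared no 31-base word with another gene. Its mean level in the alignment-free table was 1.97 times that in the alignment-based table, against 0.79 times for H2-K1, 0.80 times for H2-D1 and a median of 1.40 times over expressed protein-coding genes. Patl2, on the opposite strand, spans all of B2m but was at 0.11 TPM.

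Promoter sequence is shown for H2-K1 and B2m because heavy and light chain share a module of letters although the genes lie on different chromosomes. Class I promoters are known for a κB element, an interferon-stimulated response element (ISRE) and the SXY module, whose X2 box resembles a CRE half-site (TGACG) and whose Y box is an inverted CCAAT box (ATTGG). Capitals mark matches to GGGNNTTCC (κB), a pair of GAAA with 2 bases between (ISRE), TGACG and ATTGG. The bases come from the RefSeq promoter table of GRCm38.p6 and end at the last base before the annotated start. H2-K1 is chr17:34000348-34000597 on the minus strand and B2m is chr2:122147437-122147685 on the plus strand:
H2-K1: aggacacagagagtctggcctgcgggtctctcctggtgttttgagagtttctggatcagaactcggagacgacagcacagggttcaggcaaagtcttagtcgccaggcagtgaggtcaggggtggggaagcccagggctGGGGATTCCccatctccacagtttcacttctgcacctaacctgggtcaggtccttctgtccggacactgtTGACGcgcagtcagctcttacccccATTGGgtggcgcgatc
B2m: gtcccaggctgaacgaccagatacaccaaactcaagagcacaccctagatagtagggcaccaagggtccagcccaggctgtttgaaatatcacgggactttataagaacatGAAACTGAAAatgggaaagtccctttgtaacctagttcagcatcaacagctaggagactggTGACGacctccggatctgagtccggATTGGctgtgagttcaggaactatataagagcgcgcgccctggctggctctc

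Both promoters hold TGACG followed, after 20 bases, by ATTGG. The motifs were searched on both strands in the 250 bases before each RefSeq start, for the 8 class I genes that the table holds. For H2-D1, Psmb8, Psmb9 and Tapbp this window lies inside the annotated gene. Their matches, or lack of them, therefore do not describe sequence before the outermost annotated start. GGGNNTTCC occurred in 2 of the 8 (H2-K1 and H2-D1) and in 4.98% of 32851 promoters, and the ISRE letters in 1 of the 8 (B2m) and in 2.98% of promoters. TGACG occurred in 5 of the 8 and 17.8% of promoters, and CCAAT in 6 of the 8 and 33.8% of promoters. The windows of Psmb9 and Tap1 overlap on opposite strands. Their TGACG match is the same site counted for both genes, and so is their CCAAT match. The spaced pair, a combination set after these sequences were seen, occurred in 30 of the 32851 promoters (0.0913%), at 26 of 27025 genes. H2-K1, H2-D1 and B2m were among them, as was H2-M3, a nonclassical heavy chain. These matches describe letters in the window and were not tested as binding sites. Only the exact letters were counted, so an element with another base or spacing was missed. A promoter without a match may therefore still hold a κB element or an ISRE.

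Nlrc5 came next in level. It encodes the NOD-like receptor family protein that acts as the class I transactivator, and lies at chr8:94434356-94527272 on the plus strand. Its level was 105.04, 78.84 and 91.57 TPM, highest in replicate 1 and lowest in replicate 2, with a mean of 91.8 ± 13.1 TPM and rank 431. In counts scaled to library size the order differed, and Nlrc5 was lowest in replicate 1. The log2 difference from the reference gene was 3.70 ± 0.12 SE (limma adjusted p = 5.2e-05). On average the level of H2-D1 was 7.29-fold that of Nlrc5, and the level of Nlrc5 was 2.65-fold that of B2m, in the same order in all 3 libraries. The log2 ratio of H2-D1 over Nlrc5, 2.87 over all isoforms, was 2.03 over isoforms of at least 800 bases and 3.82 over protein-coding isoforms. That of Nlrc5 over B2m, 1.41 over all isoforms, was 0.69 over isoforms of at least 800 bases, 0.50 in the alignment-free table and 0.07 over protein-coding isoforms. It has the longest coding transcript of the 10 genes, Nlrc5-207, with 53 exons and 7578 bases, which carried 85.2% of its expected counts. Only 0.172% of the 31-base words of that transcript occurred in another gene.

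Tapasin was more abundant than both chains of the peptide transporter. Tapbp, which encodes tapasin, lies at chr17:33915899-33929292 on the plus strand, and its level was 39.13, 26 and 29.02 TPM, a mean of 31.4 ± 6.88 TPM. It was higher than the reference gene (log2 difference 2.15 ± 0.13 SE, limma adjusted p = 0.00044). The log2 ratio of B2m over Tapbp was 0.27, 0.29 and -0.10, a mean of 0.15 ± 0.22 (SD), within its spread. The ratio was 0.73 in the alignment-free table, 0.73 over isoforms of at least 800 bases, 0.80 over protein-coding isoforms and -1.14 in counts not scaled for length, so the order of this pair depended on the measure. Gm19412, an antisense gene at 2.37 TPM, overlaps Tapbp by 1207 bases and held 20.9% of the 31-base words of the longest Tapbp coding transcript. Zbtb22, a zinc-finger gene at 4.31 TPM, starts 5 bases from the outermost annotated Tapbp start on the same strand and overlaps Tapbp by 3422 bases. The RefSeq promoter of Tapbp used for the motif search comes from chr17:33919228-33919527, inside the annotated gene, so it belongs to a different start.

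Tap1 and Tap2 encode the 2 chains of the transporter and lie close together in the MHC, Tap1 at chr17:34187553-34197225 and Tap2 at chr17:34203527-34216321, both on the plus strand. Tap1 was at 10.79, 9.59 and 8.71 TPM (9.70 ± 1.04 TPM), slightly above the reference gene in all 3 libraries but inside the 2-fold band (log2 difference 0.48 ± 0.12 SE). Tap2 was at 4.34, 4.18 and 3.77 TPM (4.10 ± 0.29 TPM), below the reference gene in all 3 and also inside the band (-0.74 ± 0.14 SE). The chains of the transporter stood on opposite sides of the reference gene without overlap, and neither was called.

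Psmb8 and Psmb9, which encode inducible proteasome subunits, were the least abundant class I genes, and the inducible subunit gene Psmb10 stood slightly above Tap2. Psmb10, which encodes the β2i subunit, lies at chr8:105935735-105938444 on the minus strand, and its level was 4.39, 5.44 and 5 TPM (4.94 ± 0.53 TPM), inside the band (-0.48 ± 0.16 SE). Psmb8, which encodes β5i, lies at chr17:34197721-34201454 on the plus strand and was at 2.01, 1.51 and 1.95 TPM (1.82 ± 0.27 TPM), lower than the reference gene (-1.88 ± 0.18 SE, limma adjusted p = 0.0039), a call lost with a 4-fold band or with reference genes from 0.1 TPM (-0.81). Psmb9, which encodes β1i, lies at chr17:34181987-34187764 on the minus strand and was at 0.82, 1.14 and 0.96 TPM (0.973 ± 0.16 TPM), the lowest of the 10 (-2.72 ± 0.23 SE, limma adjusted p = 0.00072). Its level rested on 19.03, 38.35 and 29.2 expected counts. The exact 95% Poisson intervals of the rounded counts were 11.4 to 29.7, 26.9 to 52.2 and 19.4 to 41.6. The intervals cover counting error only and are not scaled for library depth, so they do not compare the level between libraries.

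Psmb9 and Tap1 are head to head. Their annotated starts are 211 bases apart on opposite strands and the genes overlap by 212 bases, yet Tap1 was at 9.70 TPM and Psmb9 at 0.973 TPM. Of the 31-base words of the longest Psmb9 coding transcript, 13.8% also occurred in Tap1, so the counts of the pair are uncertain where they overlap.

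Each inducible subunit replaces a constitutive one in the immunoproteasome, and the pairs differed in size. Of the 3 constitutive subunits, Psmb6 was higher than the reference gene, Psmb5 was lower and Psmb7 was neither. Psmb9 was far below Psmb6, the constitutive β1 subunit, which was at 71.68, 63.19 and 56.02 TPM. The log2 ratio of Psmb9 over Psmb6 was -6.29, -5.67 and -5.73, a mean of -5.90 ± 0.34 (SD), so that Psmb9 was 59.5-fold lower. The log2 ratio was -4.23 over isoforms of at least 800 bases, -4.49 in unscaled counts and -5.04 over protein-coding isoforms, negative in each. All 3 libraries showed this direction, and the exact sign-flip permutation p was 0.25, the smallest that 3 libraries allow (0.333 adjusted over 12 pairs).

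Psmb10 was below Psmb7, the constitutive β2 subunit, by a smaller margin. Psmb7 was at 8.87, 6.26 and 9 TPM, and the log2 ratio of Psmb10 over Psmb7 was -0.998, -0.20 and -0.84, a mean of -0.68 ± 0.42 (SD; exact sign-flip permutation p = 0.25). Over protein-coding isoforms only, the ratio turned to 0.46.

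Psmb8 over Psmb5, the constitutive β5 subunit, could not be ordered. Psmb5 was at 0.21, 1.53 and 0.61 TPM on 2, 21 and 6 expected counts, and the log2 ratio was 2.77, -0.02 and 1.53, a mean of 1.43 ± 1.40 (SD; exact sign-flip permutation p = 0.5). The linear ratio per length had exact 95% binomial intervals, which cover counting error only, of 2.46 to 81.9 in replicate 1, 0.557 to 1.75 in replicate 2 and 1.37 to 9.15 in replicate 3. Leaving out replicate 1 gave a log2 ratio of 0.76 and leaving out replicate 2 gave 2.15, and over protein-coding isoforms only the ratio was -1.02.

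**Figure D2:**
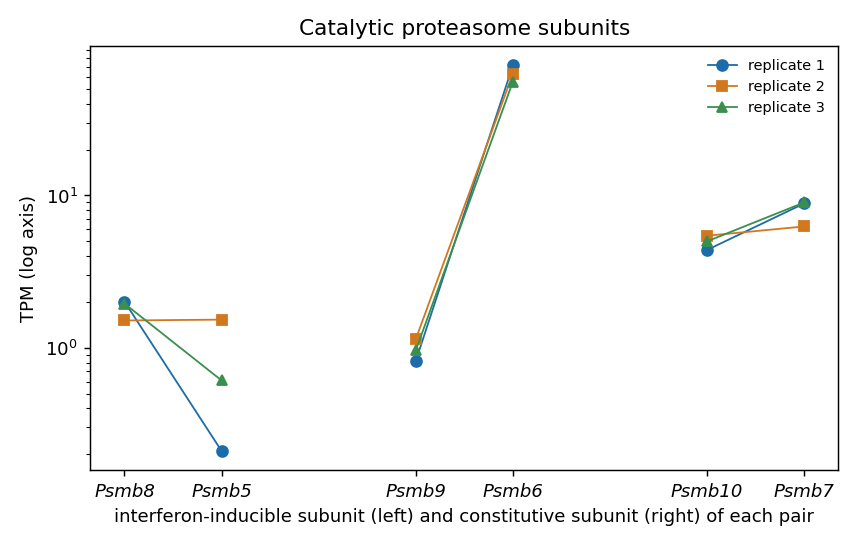
Level in TPM (log axis) of the inducible subunit, left, and the constitutive subunit, right, of each catalytic pair; lines join values of the same library. Psmb9 lies near 1 TPM and Psmb6 between 56.02 and 71.68 TPM in all 3 libraries, while the lines of Psmb8 and Psmb5 spread over 0.21 to 2.01 TPM.

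Between other neighbours in the order of levels, the gene named first was higher in every library of the alignment-based table and the mean log2 ratio exceeded its SD. These pairs were formed from the order of mean TPM in these same libraries. The direction of each mean was thus largely set in advance, and the p-values below are no separate support for it. The log2 ratio was 1.67 ± 0.22 (SD) for Tapbp over Tap1, 0.96 ± 0.28 for Tap1 over Psmb10, 1.13 ± 0.25 for Tap2 over Psmb8 and 0.84 ± 0.42 for Psmb8 over Psmb9. Psmb10 over Tap2 was close, at 0.02, 0.37 and 0.40, and turned to -0.86 over isoforms of at least 800 bases. The exact sign-flip permutation p of each was 0.25, or 0.333 adjusted. In the alignment-free table Tap1 over Psmb10 shrank to 0.07 and Psmb8 over Psmb9 to 0.34. In replicate 3 of that table both turned: Tap1 was at 9.32 TPM and Psmb10 at 10.8 TPM, and Psmb8 was at 1.74 TPM and Psmb9 at 1.86 TPM. Over protein-coding isoforms Psmb8 over Psmb9 was 0.04 and Tap2 over Psmb8 was 0.34.

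The class I genes differed in which annotated isoforms held their RNA. Of the 72 transcripts, 34 are annotated as protein-coding, 29 as retained intron and 9 as other kinds. A retained-intron isoform is an annotated transcript that keeps intron sequence, and RNA not yet spliced was not measured apart from it. The mean share of TPM in retained-intron isoforms was 91.3 ± 3.06% (SD, n = 3) for Tap2, 85.2 ± 6.68% for Psmb8, 73.9 ± 12.5% for Psmb9, 71.1 ± 6.10% for H2-K1 and 57.2 ± 7.66% for Tap1. It was lower for Psmb10 (36.4 ± 1.60%), Nlrc5 (23.4 ± 7.01%), H2-D1 (22.9 ± 2.53%) and Tapbp (22.6 ± 5.57%). Thus 5 of the 9 genes with both kinds of isoform had over 50% of TPM in retained-intron isoforms, where 34.9% of 5824 expressed protein-coding genes did. Their median share was 57.2%, and that of the 5824 genes was 40.2%. In the alignment-free table the share of Psmb10 was 54.2%, so 6 of the 9 were over 50% there. By expected counts the shares of H2-D1, Nlrc5 and Tapbp were lower, at 13.5, 7.95 and 6.44%.

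The heavy chains, alike in level, were unlike in isoforms. H2-K1 had 78.2, 67.4 and 67.8% of its TPM in retained-intron isoforms in replicates 1, 2 and 3, whereas H2-D1 had 25.6, 22.6 and 20.5%, with no overlap. H2-K1 has 7 such isoforms among 16, and H2-D1 has 1 among 4, so the annotation offers unequal numbers. The H2-K1 isoform with the highest mean TPM, H2-K1-215, is a retained-intron transcript of 457 bases that was at 243.85, 88.15 and 152.83 TPM. In the alignment-free table it was at 181.78, 5.39 and 60.37 TPM, so the ratio between the tables was widest in replicate 2. Coding transcript H2-K1-201 was steadier, at 86.62, 93.03 and 99.98 TPM, and was above H2-K1-215 in replicate 2. By expected counts H2-K1-201 held 24.5% of the gene and H2-K1-215 held 6.73%.

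Tap2 was carried by a single isoform. Tap2-202, a retained-intron transcript of 11 exons and 2561 bases, was at 4.11, 3.77 and 3.35 TPM, and the coding transcript Tap2-201 was at 0.23, 0.40 and 0.42 TPM. In the alignment-free table the retained-intron share of Tap2 was lower and more variable, at 66.7, 72.4 and 39.3%.

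**Figure D3:**
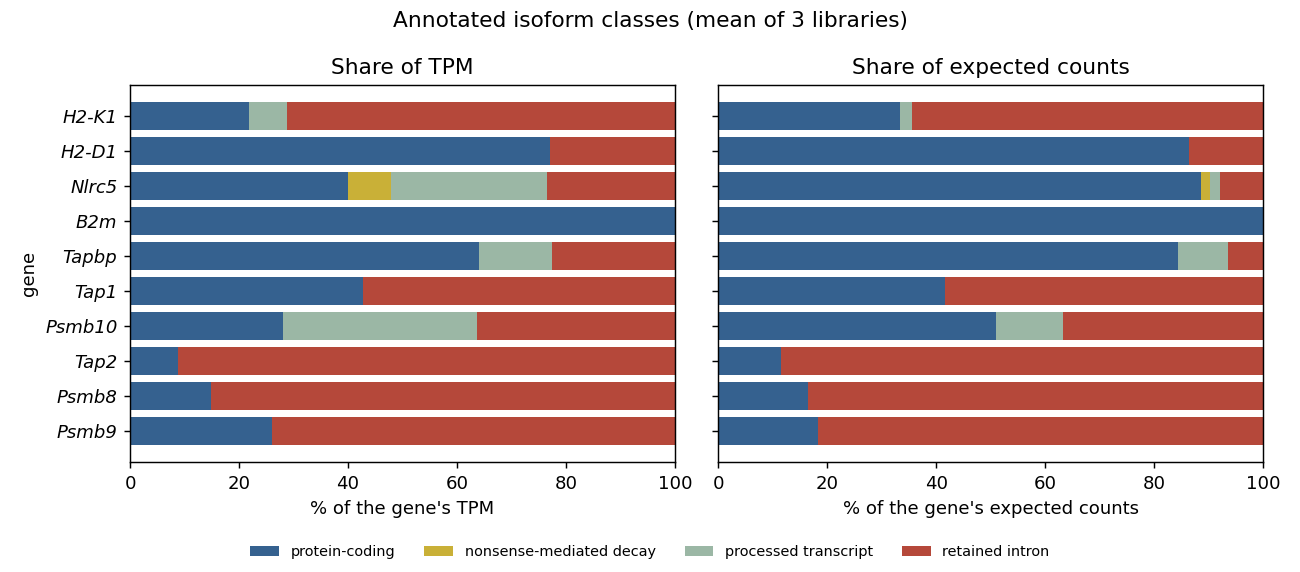
Share of each gene's TPM (left panel) and expected counts (right panel) in each annotated isoform class, as the mean of 3 libraries, in percent. Retained-intron isoforms hold 91.3% of the TPM of Tap2 and 22.9% of that of H2-D1, and B2m has a single protein-coding isoform.

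Short isoforms weighed more in TPM than in counts, since TPM divides by effective length. Isoforms shorter than 800 bases held 65.8% of the TPM of H2-D1 on 22.3% of its expected counts. The same isoforms held 39.2% of the TPM of Nlrc5 on 3.56% of its counts, 42.6% of H2-K1 on 13.7%, and 53.2% of Psmb10 on 27.5%. Over expressed protein-coding genes the median share of TPM in such isoforms was 14.7%.

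The calls of the 5 higher genes held under each way of counting isoforms, while those of Tap2 and Psmb10 did not. H2-K1, H2-D1, Nlrc5, B2m and Tapbp were higher than the reference gene over all isoforms, over protein-coding isoforms only, over isoforms of at least 800 bases and in the alignment-free table. Over protein-coding isoforms only, Tap2 (-3.44) and Psmb10 (-1.72) joined Psmb8 and Psmb9 as lower. Tap1 was at -0.20 there, inside the band as over all isoforms, over isoforms of at least 800 bases and in the alignment-free table. Against reference genes from 0.1 TPM, however, Tap1 was higher (1.54). In the alignment-free table Psmb10 was above the reference gene at 0.44, inside the band.

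**Figure D4:**
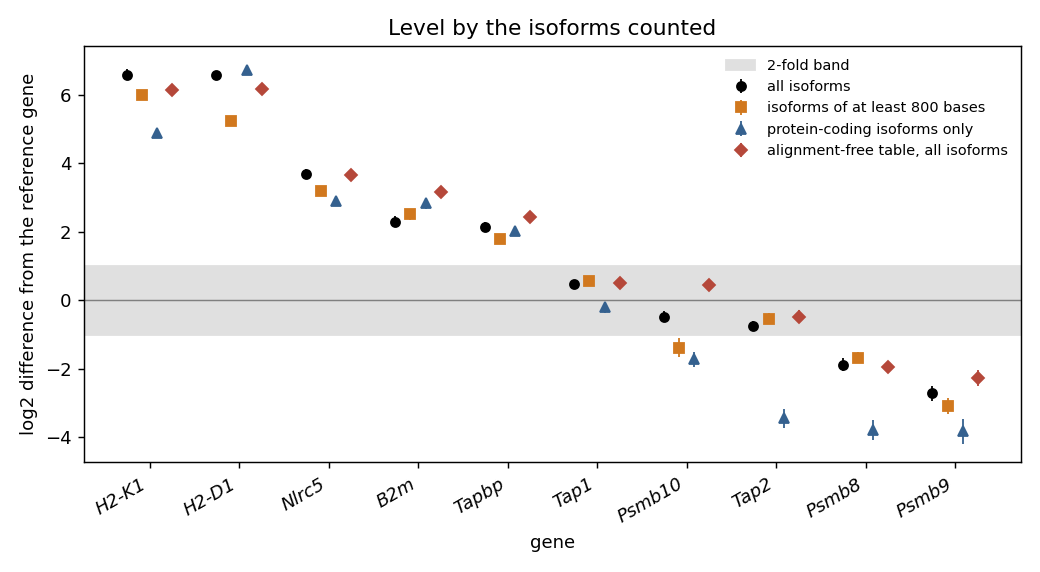
Log2 difference of each class I gene from the reference gene when TPM is summed over all isoforms, isoforms of at least 800 bases or protein-coding isoforms only, and in the alignment-free table; bars are the SE and the grey band is 2-fold. The first 5 genes lie above the band throughout, and Tap2 lies at -0.74 over all isoforms and at -3.44 over protein-coding ones.

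Deviations between replicates were measured in log2 CPM (counts scaled to library size, TMM) from each gene's mean over the 3 libraries. The SD of the 10 genes had a median of 0.15, where 12931 expressed genes had a median of 0.27. Among 4978 genes with a mean log2 CPM of at least 4, the 6 class I genes had a median SD of 0.12 and all genes one of 0.23. In this subset 5 of the 6 were below the genes' median, and B2m, at an SD of 0.29, was the exception. Tapbp (0.06) and H2-K1 (0.06) had the smallest SD and Psmb10 (0.41), with 34, 80 and 60 counts, the largest. In TPM the order differed: the coefficient of variation was 21.9% for Tapbp, 21.5% for H2-K1 and 10.7% for Psmb10, and B2m had the highest at 29.7%.

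No library was an extreme for all class I genes. In replicate 1, 5 of the 10 were lowest (37.9% of expressed genes were) and 3 were highest (36.3%). In replicate 2, 3 of the 10 were lowest (38.3%) and 5 were highest (37.6%). In replicate 3, 2 were lowest (23.8%) and 2 were highest (26.1%). The deviations of B2m were 0.29, -0.01 and -0.28 in replicates 1, 2 and 3. Those of its partners were -0.12, 0.04 and 0.08 for H2-D1 and 0.05, -0.07 and 0.02 for H2-K1, which shared the sign of B2m in replicates 1 and 2. RNA input and depth also differed between the libraries, and their part in these deviations was not tested.

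**Figure D5:**
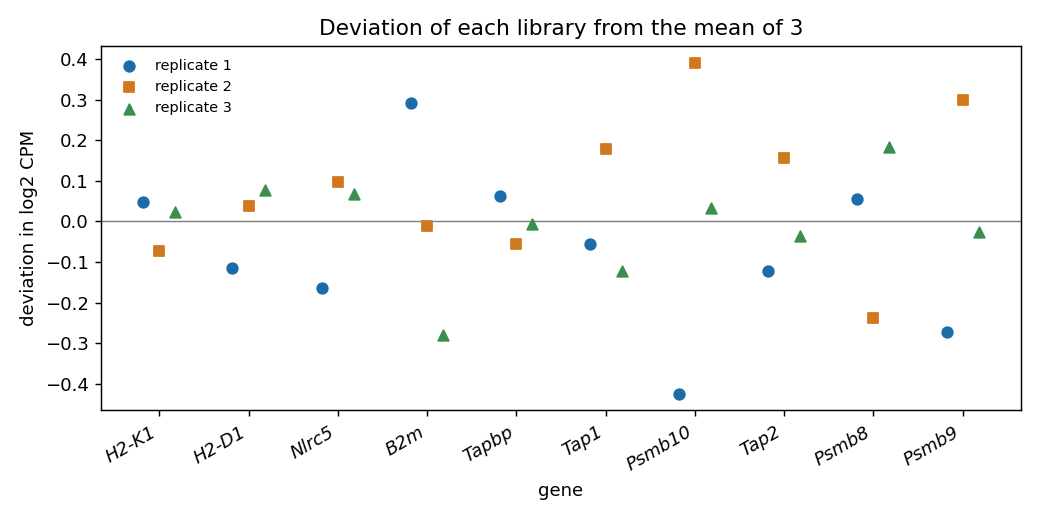
Deviation of each library from the mean of 3, in log2 CPM, for each class I gene. Points of H2-K1 and Tapbp lie within 0.08 of 0, and Psmb10 ranges between -0.42 in replicate 1 and 0.39 in replicate 2.

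The protein-coding genes whose deviations lay nearest to the class I medians of -0.08, 0.07 and 0.01 were Gm36079, Hmgb1, Mtmr3, Copb2 and Ide, at Euclidean distances of 0.0067 to 0.0082 over 3 libraries. With only 3 points such closeness is common: 623 of 8638 genes lay within 0.1.

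The wider antigen-processing pathway, 67 genes in 7 lists, held 17 genes higher than the reference gene, 22 lower and 28 neither. Its shares can be read against the 19.5% higher and 44.5% lower of all protein-coding genes. In the alignment-free table, whose shares over all genes are not given here, 25 of the 67 were higher and 14 were lower. Within the proteasome, 1 of 11 other 20S core subunits was higher (Psma3, an α-ring subunit, 29.2 ± 4.37 TPM), 3 were lower and 7 were neither, and Psma5 was the lowest at 1.33 ± 0.11 TPM. This balance turned in the alignment-free table, where 4 were higher and 0 were lower (Psma2 averaged 22.7 TPM there and 2.22 TPM in the alignment-based table). With a 4-fold band 0 were higher and 0 lower, and without replicate 3 only 1 was lower. Of 9 activator and assembly genes, 2 were higher and 4 were lower. Psme2, an interferon-inducible subunit of the PA28 activator, was at 83.51, 86.08 and 71.88 TPM, and Psme4, which encodes the PA200 activator, was at 69.93, 53.52 and 47.93 TPM. Psmg4, an assembly chaperone, was at 0.28, 0.19 and 0 TPM on at most 1 count.

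Of 10 genes for loading and trimming in the endoplasmic reticulum, 3 were higher and 2 were lower. Hspa5, the chaperone BiP, led at 81.9 ± 15.4 TPM, and Sec61b, a translocon subunit, was lowest at 0.527 ± 0.10 TPM. Tapbpl, which encodes the tapasin-related editor TAPBPR, was also lower, at 1.66, 0.71 and 1.11 TPM, whereas its relative Tapbp was higher.

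Of 14 other class I heavy chains, 3 were higher, 5 were lower and 6 were neither. H2-Q4 was at 63.95, 39.44 and 54.57 TPM, H2-Q7 at 44.80, 21.98 and 32.49 TPM and H2-M3 at 19.59, 15.24 and 16 TPM, all higher and all lowest in replicate 2. H2-T3, H2-Q1, H2-Q2 and H2-Bl were listed at 0 in every library of the alignment-based table. The alignment-free table had H2-Bl at 4.54, 2.30 and 2.76 TPM, and the other 3 averaged 0.063 to 0.289 TPM. These genes are close copies of one another, so the division of reads among them is uncertain. Of 5 class I-like molecules none was higher and 4 were lower (2 in the alignment-free table or with a 4-fold band); Cd1d1, which presents lipids, was the most abundant at 2.68 ± 0.76 TPM and Cd1d2 was listed at 0.

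Of 15 transcriptional regulators of class I genes, 7 were higher, 3 were lower and 5 were neither. Irf1, an interferon-regulatory factor that binds the ISRE, led at 788.02, 445.69 and 432.08 TPM, with replicate 1 well above the others. The lower genes were Ciita, the class II transactivator related to Nlrc5, at 3.40, 1.62 and 1.5 TPM, and Rfxap and Rfxank, subunits of the RFX complex that binds the X box, at 1.43 ± 0.33 and 1.48 ± 0.18 TPM. These calls depended on the setting: the alignment-free table had 1 lower regulator, with Ciita at a mean of 4.28 TPM and Rfxap at 3.41 TPM, and a 4-fold band left 0. Nlrc5 at 91.8 TPM thus stood above its relative Ciita at 2.17 TPM in every library.

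Other annotated genes overlapping class I genes were at low levels. On the opposite strand, 9330175E14Rik overlaps Nlrc5 by 748 bases at 0.843 TPM, and Gm16156 spans Psmb10 at 1.17 TPM. Gm20496 overlaps both Tap2 and Psmb8 at 0.0667 TPM, Gm15821 overlaps Tap2 at 0.18 TPM, and Mir7072, inside Nlrc5, was listed at 0. The strand setting of the counting is not stated, so reads in these overlaps cannot be told apart.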

How the data were processed

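Members and lists were chosen with earlier results of these data known. Per library, the authors deposited expected counts and TPM for genes and transcripts from transcriptome alignments, and estimated counts and TPM for transcripts computed without alignment (called alignment-free here), per the file headers and deposited notes. The sources used here name no program. Assembly was mm10 and annotation release M21, per the deposited notes. Estimated counts divide reads that fit several transcripts, and TPM deposited by the authors favours short transcripts. tRNA, spike-in and phiX rows (26345) were left out of tests.

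The scale was log2(TPM + 0.1), on which differences of low genes are understated; listed genes and those averaging 0.1 TPM or more entered. They were tested with limma 3.58.1 (treat, 2-fold band, trended prior, Benjamini-Hochberg adjustment), a procedure tested on simulated data. Rounded expected counts gave log2 CPM with edgeR 4.0.16 (TMM, filterByExpr with a minimum count of 10, prior count 2); all 10 members passed both filters. Pairs of genes were compared by exact sign-flip permutation tests, two-sided, adjusted over 12 pairs. A count of 0 allows up to 3 counts, 1.64e-05 to 2.36e-05% of a library, counting error only. Named genes were the members, the catalytic subunits, the highest and lowest gene of each list, genes called against most of their list, the 5 genes nearest in deviations, and overlapping or adjacent genes. Alternatives were the pseudocount, filters, reference gene, band, table, scaling, isoforms counted and each library left out.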

Additional observations from a re-analysis of the deposited data

How the results depend on the processing

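No paired analysis was possible because the series holds 1 group. Leaving out each replicate in turn left 5 class I genes higher and 2 lower than the reference gene, and 16 to 17 higher and 19 to 22 lower among the 67 pathway genes. It gave log2 ratios of 0.76 to 2.15 for Psmb8 over Psmb5, -6.01 to -5.70 for Psmb9 over Psmb6, -0.92 to -0.52 for Psmb10 over Psmb7 and -0.09 to 0.11 for H2-K1 over H2-D1, and median retained-intron shares of 53.1 to 60.7%.

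The choice of reference gene and band moved the counts of calls. Shares over all genes under these other settings are not given here, so the counts have no background beside them. With a reference of genes from 5 TPM, 3 class I genes were higher (B2m and Tapbp were lost) and 4 lower, and 36 pathway genes were lower. A reference from 0.1 TPM gave 6 class I genes higher (Tap1 joined at 1.54) and left 1 lower (Psmb8 was lost). A 4-fold band gave 3 higher and 1 lower (B2m, Tapbp and Psmb8 were lost), and 11 pathway genes lower. Without a band, 6 class I genes were higher (Tap1 joined) and 4 were lower, and 26 pathway genes were higher and 34 lower. A filter at a mean of 1 TPM, which leaves Psmb9 untested, gave 1 lower. Protein-coding isoforms only gave 4 lower, and the alignment-free table gave 25 pathway genes higher and 14 lower.

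Among ratios, Psmb8 over Psmb5 was -1.02 and Psmb10 over Psmb7 was 0.46 over protein-coding isoforms only, both reversed. Psmb10 over Tap2 reversed to -1.76 in unscaled counts and -0.86 over isoforms of at least 800 bases. Psmb9 over Psmb6 was -5.03 with a pseudocount of 1, -4.49 in unscaled counts, -5.04 over protein-coding isoforms and -4.23 over isoforms of at least 800 bases. Psmb10 over Psmb7 was -0.19 in the alignment-free table, -2.71 in unscaled counts and -1.80 over isoforms of at least 800 bases. H2-K1 over H2-D1 was -1.84 over protein-coding isoforms and 0.76 over isoforms of at least 800 bases. On log2 TPM against the reference gene, 5 class I genes were lowest in replicate 2, against 3 in log2 CPM, and the median deviations of 0.02, -0.04 and 0.03 turned in replicates 1 and 2. The share of all expressed genes lowest in replicate 2 on that scale is not given here, so the shift cannot be called particular to class I genes. The isoform alternatives were chosen after the data were seen, and the cause of these changes was not tested. Psmb5, Psmb8 and Psmb9 are limited by counts of at most 50.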
